A study of Mus musculus with 18 samples.

Results

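The comparison described here sets arthritic mouse forepaws against control forepaws over both genotypes of the series, Sema3b-/- and WT, with genotype as a blocking term. It asks what arthritis changed in common in the presence and absence of Sema3b. All 18 of the 18 libraries entered it: 10 from arthritic mice (5 Sema3b-/- and 5 WT) and 8 from control mice (4 Sema3b-/- and 4 WT), sorted by the treatment label. All mice were on the C57BL/6 background, and Sema3b-/- mice lack Sema3b, a secreted class 3 semaphorin. The arthritis model, the time after its onset, the age and the sex of the mice are not in the labels used here, and neither is any treatment that the controls received. Messenger RNA was profiled by CEL-seq, which reads a tag near the 3′ end of each transcript, so levels are compared between libraries and never between genes. A forepaw is a mixed tissue of joint, bone, cartilage, muscle, skin, nerve, fat and marrow, and in such bulk RNA fewer cells of a type and less RNA per cell cannot be told apart.

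In inflammatory arthritis the joint lining recruits neutrophils and monocytes, and its fibroblasts release cytokines, chemokines and enzymes that degrade matrix, while cartilage and bone are eroded. Interleukin-1, interleukin-6 and TNF are its best known cytokines, and the transcription factors NF-κB and AP-1 carry much of their effect on genes. Receptors of the innate immune system, among them Fc receptors, C-type lectins and Toll-like receptors, equip the recruited myeloid cells to sense immune complexes and microbial or damaged material.

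The values are normalized counts, that is, reads divided by a size factor of the library. Total reads ran from 1732783 to 19464888 per library, and a count of 0 in the shallowest library allows up to 12.1 normalized counts, by counting error alone. Sema3b followed the genotype label in every library, at 0 to 7.20 normalized counts in the 9 Sema3b-/- libraries, against 23.7 to 67.5 in the 9 WT libraries. Markers of muscle, epidermis, cartilage, bone, nerve, fat and marrow passed the filter on low values, although single members of their lists, such as Matn1 for cartilage, Ucp1 for fat and Pax5 for B cells, did not. One column of the deposited table, Sema3b-/- arthritis 5, ends in Ct although its title and treatment label say arthritis. Among genes called without it, that library lay on the arthritis side of the midpoint for 90.5%. WT arthritis 2 lay on the arthritis side for 38.5% of the genes called without it and WT arthritis 1 for 52.6%, while the other libraries lay on their own side for 65.4% to 91.2%. WT arthritis 1 also carried 39.4% of its reads on mitochondrial transcripts, against 16.0% to 23.0% in control libraries. Xist and 4 Y-linked genes read 5 arthritis libraries as female and 5 as male, against 6 female and 2 male controls. In WT mice 4 of 5 arthritis libraries read as male and all 4 controls as female.

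Between arthritis and control libraries 3299 of 13809 tested genes (23.9%) differed at a Benjamini-Hochberg adjusted p under 0.05 in limma. Of these, 1763 rose (12.8% of tested genes) and 1536 fell (11.1%). The log2 fold change exceeded 1 for 406 of the genes that rose and lay below -1 for 522 of those that fell. The median log2 fold change was 0.61 among genes that rose, -0.76 among genes that fell and -0.01 over all tested genes. In 316 genes (2.29% of those tested) no arthritis library overlapped any control library, and 184 of these were higher and 132 lower in arthritis. A count at an unadjusted p under 0.05 gave 5262 genes. Titles of control libraries begin with other words than those of arthritis libraries, so whatever those words mark and arthritis cannot be told apart. Titles carry animal numbers of their own, but the labels do not say in words that every library is a separate animal. Those of Sema3b-/- control 3 and Sema3b-/- control 4 differ in animal number but share an inner name in brackets. Xist and the Y-linked genes read the former as male and the latter as female, and both were kept as separate libraries. The p-values rest on the variation among these 18 libraries.

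Both genotypes entered the pooled fit, so its calls favour genes with the same sign in Sema3b-/- and in WT forepaws, and all 3299 had it. As a description, the fold change was larger in Sema3b-/- for 1079 of the 1763 genes that rose, and more negative in Sema3b-/- for 1015 of the 1536 that fell. WT arthritis 1 and WT arthritis 2, which lay nearest to the controls for many genes, are both WT, and in WT forepaws sex ran with arthritis. How far either goes with these counts, or with the list medians by genotype below, was not tested. The difference in fold change between genotypes was tested as an interaction. No gene passed (0.0% of tested genes) in limma or edgeR at an adjusted p under 0.05, DESeq2 called 8, and 663 genes had an unadjusted p under 0.05 in limma. The lowest interaction p belonged to Per1, a core clock gene, with a log2 fold change of -1.74 in Sema3b-/- and 0.58 in WT forepaws (limma adjusted p = 0.449 for the difference). The authors' deposited tables, which hold each genotype's arthritis effect separately, list 973 called genes in Sema3b-/- and 481 in WT. They share 294 genes, 30.2% of the Sema3b-/- list and 61.1% of the WT list, and of these the authors' deposited tables gave 216 as higher and 78 as lower in both. All 294 were also called in the pooled comparison.

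**Figure D1:**
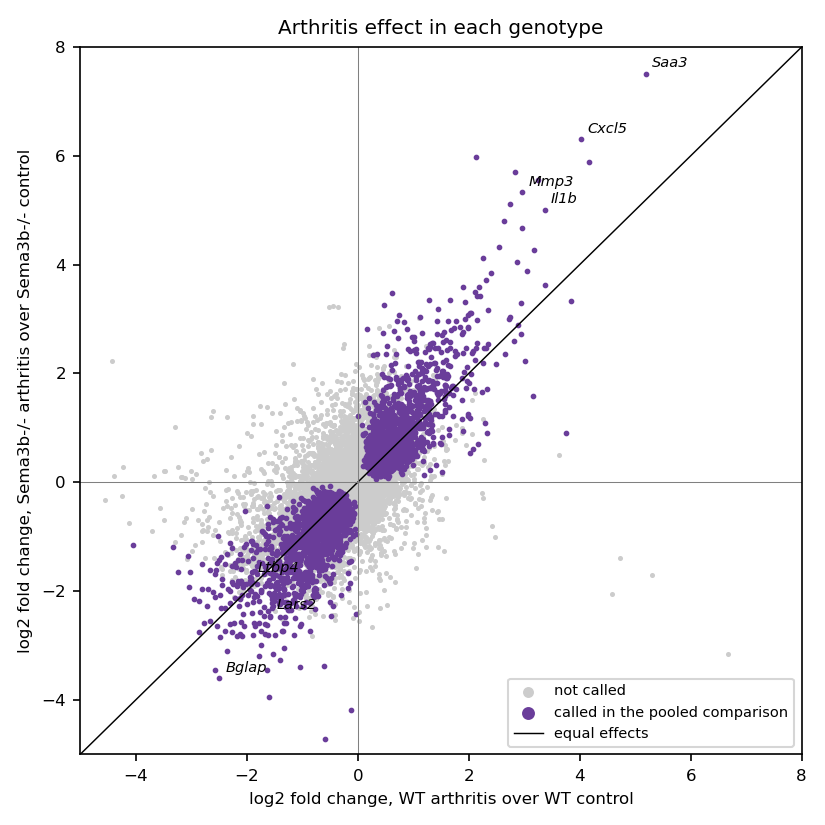
Log2 fold change of arthritis over control in each tested gene, in WT forepaws on the x axis and in Sema3b-/- forepaws on the y axis; purple points are the 3299 genes called in the pooled comparison, grey points the others, and the diagonal marks equal effects. Purple points lie where the signs match, which the pooled choice of genes favours, and Saa3 is farthest out, at 7.51 in Sema3b-/- and 5.19 in WT forepaws.

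Cytokines that drive joint inflammation were among the genes with the largest increases. On a cytokine list 5 of 12 tested members rose (Il1b, Il6, Osm, Il10 and Il1rn) and 0 fell. The list's median log2 fold change was 0.77, at 1.33 in Sema3b-/- and 0.33 in WT forepaws. Il1b (interleukin-1 beta, chr2:129364569-129371164 on GRCm38) was at 35.5 to 937 normalized counts in arthritis libraries (median 332), against 2.37 to 35.4 in control libraries (median 16.1). The conditions touched without overlapping: WT arthritis 1 was the lowest arthritis library and stood just above WT control 1, the highest control. The log2 fold change of Il1b was 4.19 ± 0.64 (SE, limma adjusted p = 0.000324). Il6, which encodes interleukin-6, was at 0 to 57.5 normalized counts in arthritis libraries (median 13.0), against 0 to 3.60 in control libraries (median 0). WT arthritis 1 and WT arthritis 2 lay within the control range and the other 8 arthritis libraries above it. Il6 rose by 3.12 ± 0.68 (SE, limma adjusted p = 0.00341), a value that depends on the added 1 because most controls had no read. Osm, which encodes oncostatin M, rose by 2.38 ± 0.48, and Il1rn, the natural antagonist of the interleukin-1 receptor, by 0.87 ± 0.24. Tnf and Il1a, at 1.07 ± 0.55 and -0.59 ± 0.52, did not pass, and Csf2, Csf3, Il23a, Il12b and Tgfb1 were below the filter on low values.

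Chemokines formed the steepest group. All 8 of 8 tested chemokines that attract monocytes rose, with a median log2 fold change of 2.60. Ccl8 (chr11:82115185-82116799) was at 445 to 4940.0 normalized counts in arthritis libraries (median 2978), against 58.2 to 241 in control libraries (median 171). No library overlapped, with WT arthritis 1 and 2 the lowest of the arthritis libraries, and the log2 fold change was 3.82 ± 0.48 (SE, limma adjusted p = 9.65e-05). Ccl7 was at 136 to 3946 normalized counts in arthritis libraries (median 2114), against 38.0 to 217 in control libraries (median 140.2). In this chemokine WT arthritis 2 alone lay inside the control range, and the log2 fold change was 3.72 ± 0.59 (SE, limma adjusted p = 0.000497). The others were Ccl2, Ccl4, Ccl12, Ccl3, Ccl6 and Ccl9, with log2 fold changes of 3.19, 2.89, 2.31, 2.23, 1.95 and 1.78 in that order.

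Of 6 tested chemokines that attract neutrophils 4 rose, namely Cxcl1, Cxcl2, Cxcl3 and Cxcl5, and the platelet chemokines Ppbp and Pf4 did not pass, at -0.67 ± 0.64 and 0.20 ± 0.16. Cxcl5, a ligand of the receptor CXCR2, was at 8.72 to 1269.8 normalized counts in arthritis libraries (median 624), against 2.40 to 20.6 in control libraries (median 13.6). Its single arthritis library within the control range was WT arthritis 2, and every other arthritis library lay above all controls. Limma gave a log2 change of 5.17 ± 0.78 (SE, limma adjusted p = 0.000351). Cxcl2, a second ligand of that receptor, was at 0.436 to 421 normalized counts in arthritis libraries (median 156), against 0 to 8.44 in control libraries (median 2.10). Again WT arthritis 2 was the lone arthritis library within the controls, for a log2 change of 5.02 ± 0.90 (SE, limma adjusted p = 0.00104). Without WT arthritis 2 the values of Cxcl5, Cxcl2 and Cxcl1 were 5.73, 5.67 and 4.92. Among 12 other chemokines 5 rose, and the list median was 0.78, at 1.53 in Sema3b-/- and 0.03 in WT forepaws. Cxcl13, which attracts B cells, rose by 3.93 ± 0.60 with no overlap between the conditions. Ccl20 rose by 2.50 ± 0.60, Cxcl10 by 1.91 ± 0.57, Cxcl16 by 1.54 ± 0.27 and Ccl19 by 0.93 ± 0.24.

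The promoters of Cxcl1 and Il6 are shown because both genes rose and both windows hold the NF-κB letters. Each window spans 250 bases before to 50 bases after the start site that RefSeq annotates on GRCm38.p6, and is written 5′ to 3′ on the gene's strand. Both genes lie on the plus strand, Cxcl1 at chr5:90890995-90891294 and Il6 at chr5:30012864-30013163. Capitals mark the matches found on either strand to GGGA, any 2 bases and TTCC (NF-κB), and to TGANTCA (AP-1).
Cxcl1: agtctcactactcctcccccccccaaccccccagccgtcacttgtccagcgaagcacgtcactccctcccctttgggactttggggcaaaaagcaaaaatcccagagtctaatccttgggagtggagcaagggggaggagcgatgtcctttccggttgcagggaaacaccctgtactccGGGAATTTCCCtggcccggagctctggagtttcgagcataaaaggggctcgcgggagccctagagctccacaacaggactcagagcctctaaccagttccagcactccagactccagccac
Il6: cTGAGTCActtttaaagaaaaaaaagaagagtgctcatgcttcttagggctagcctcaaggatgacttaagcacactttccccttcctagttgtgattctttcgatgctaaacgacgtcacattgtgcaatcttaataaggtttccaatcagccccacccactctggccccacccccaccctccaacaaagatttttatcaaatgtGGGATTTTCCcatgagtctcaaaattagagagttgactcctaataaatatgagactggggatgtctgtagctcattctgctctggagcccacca
In Cxcl1 the NF-κB letters begin at positions -71 and -70 from the start site, an overlapping pair. In Il6 they begin at -44, and the AP-1 letters at -249. The NF-κB letters occurred in 1.43% of 27025 promoter windows of the same length, in 1.52% of 10284 windows of tested genes, in 2.42% of 1324 windows of genes that rose and in 1.05% of 1138 windows of genes that fell. Windows of Il1b and Ccl8 hold neither motif. A match describes these letters only and was not tested as a binding site.

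Acute phase proteins, which are made in bulk during inflammation, rose in 7 of 12 members, fell in 1, and had a median log2 fold change of 1.86. Saa3, serum amyloid A3, was at 12.6 to 3991 normalized counts in arthritis libraries (median 2107), against 5.94 to 33.8 in control libraries (median 13.2). It had the largest log2 fold change among genes named here, 6.35 ± 0.92 (SE, limma adjusted p = 0.000275), and WT arthritis 2 was the only arthritis library within the control range. Leaving out WT arthritis 2 brought that value to 7.08. Hp (haptoglobin), Slpi (a protease inhibitor of secretions), Ptx3 (pentraxin 3) and Serpina3n rose by 2.33 ± 0.40, 2.22 ± 0.37, 2.57 ± 0.32 and 1.62 ± 0.24 on the log2 scale. Saa1 and Saa2 also rose, by 2.10 ± 0.67 and 2.86 ± 0.55, and their reads may be shared between near-identical copies. A2m, the protease inhibitor alpha-2-macroglobulin, fell, with a log2 change of -2.60 ± 0.52 (SE, limma adjusted p = 0.00202), with 4.80 to 73.2 normalized counts in arthritis libraries (median 10.7), against 13.2 to 242 in control libraries (median 101) and 4 arthritis libraries inside the control range.

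**Figure D2:**
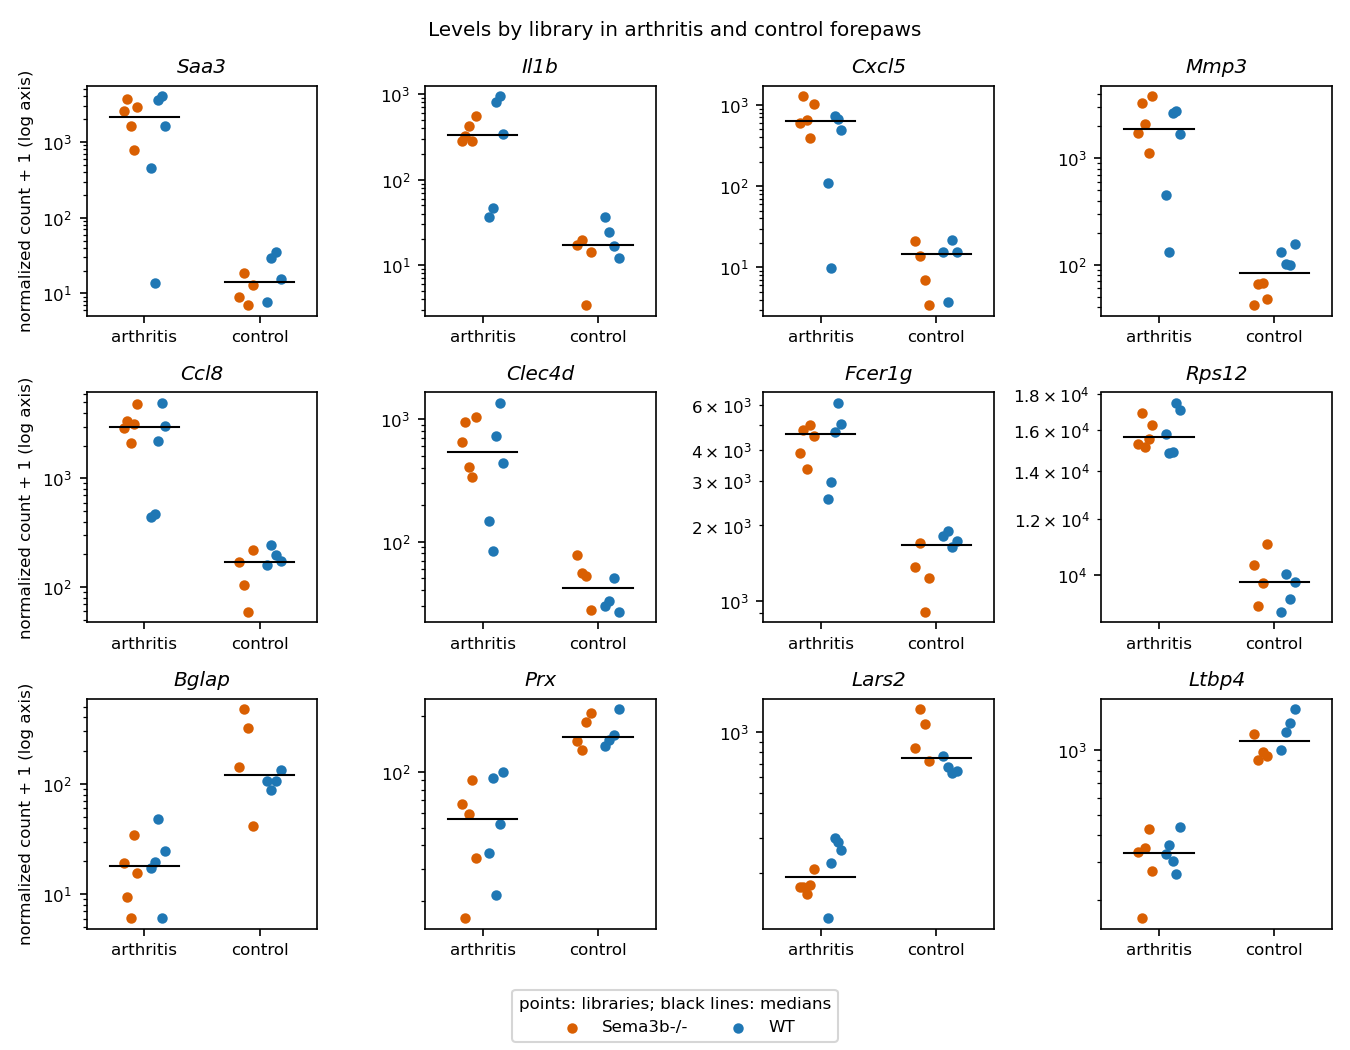
Normalized count plus 1, on a log axis, for 12 genes in the 10 arthritis libraries, left in each panel, and the 8 control libraries, right; points are libraries, orange for Sema3b-/- and blue for WT, and black lines are medians. Saa3, Cxcl5 and Mmp3 show WT arthritis 2 at or near control levels, while Ccl8, Clec4d, Fcer1g, Rps12, Prx, Lars2 and Ltbp4 show no overlap between the conditions.

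Receptors of innate immunity rose together. All 8 of 8 tested C-type lectin receptors of myeloid cells rose, with a median log2 fold change of 1.67. So did all 8 of 8 Fc receptors and their signalling adaptors (median 1.55), and 7 of 8 members of the Toll-like receptor list (median 1.00). Myd88, the adaptor on that list, did not pass (0.31 ± 0.15). Clec4d, a receptor for mycobacterial glycolipid, was at 83.3 to 1357 normalized counts in arthritis libraries (median 543), against 25.6 to 76.9 in control libraries (median 40.7). The conditions did not overlap, and the log2 fold change was 3.51 ± 0.45 (SE, limma adjusted p = 9.49e-05). Its relative Clec4e (Mincle) rose by 3.47 ± 0.58, Clec4n (Dectin-2) by 2.81 ± 0.53 and Clec7a (Dectin-1, a beta-glucan receptor) by 1.95 ± 0.29. In Clec4e only WT arthritis 1 lay within the control range. Clec4a3, a related lectin gene outside the list, was higher by 1.74 ± 0.24 without overlap.

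Fcer1g, the common gamma chain through which Fc receptors signal, was at 2553 to 6128 normalized counts in arthritis libraries (median 4631), against 906 to 1908 in control libraries (median 1673). Every arthritis library lay above every control, and the log2 fold change was 1.47 ± 0.17 (SE, limma adjusted p = 3.52e-05). The Fc receptors for immunoglobulin G ran from 1.53 ± 0.20 for Fcgr3 to 1.96 ± 0.35 for Fcgr1 on the log2 scale, with the inhibitory receptor Fcgr2b at 1.93 ± 0.31. Tyrobp (DAP12), another adaptor, and Trem2, a receptor that signals through it, rose by 1.56 ± 0.28 and 1.54 ± 0.28. Among Toll-like receptors, Tlr13, a sensor of bacterial ribosomal RNA in mice, was at 82.0 to 279 normalized counts in arthritis libraries (median 177), against 22.8 to 65.4 in control libraries (median 43.5). No library overlapped, for a log2 change of 1.90 ± 0.27 (SE, limma adjusted p = 0.000150). Tlr2 rose by 1.76 ± 0.28, Tlr1 by 1.38 ± 0.41, Tlr7 by 0.98 ± 0.18, and Ly96, the partner of Tlr4, by 1.01 ± 0.20.

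Macrophage and monocyte markers rose in 12 of 15 members, with a median of 0.96. Lyz2, lysozyme of myeloid cells, was at 389 to 1078 normalized counts in arthritis libraries (median 802), against 144 to 302 in control libraries (median 209). The conditions were separate, and Lyz2 rose by 1.74 ± 0.22 (SE, limma adjusted p = 5.74e-05). Ccr2, the receptor through which monocytes follow Ccl2, was at 290.5 to 765 normalized counts in arthritis libraries (median 544), against 110.3 to 223 in control libraries (median 183). It likewise showed no overlap, and rose by 1.62 ± 0.18 (SE, limma adjusted p = 3.44e-05). Msr1, a scavenger receptor, rose by 2.32 ± 0.27, Cd14, a co-receptor for endotoxin, by 1.79 ± 0.31, and the complement subunits C1qa, C1qb and C1qc, which tissue macrophages make, by 0.96 ± 0.17, 1.02 ± 0.19 and 0.80 ± 0.16. Csf1r, Ly6c2 and Mertk, at 0.10 ± 0.11, 0.60 ± 0.26 and 0.37 ± 0.37, did not pass. Ms4a6c, Ms4a4c and Cd300ld, membrane proteins of myeloid cells, were among the genes without overlap, at 2.08 ± 0.22, 2.54 ± 0.33 and 2.21 ± 0.36.

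Markers of mature neutrophils rose in 7 of 12 members, with a median of 1.23 (0.94 in Sema3b-/- and 1.31 in WT forepaws). Trem1, a receptor that amplifies neutrophil and monocyte activation, was at 16.3 to 282 normalized counts in arthritis libraries (median 87.2), against 0.853 to 16.2 in control libraries (median 5.31). Its lowest arthritis library, WT arthritis 1, stood barely above its highest control, and the log2 fold change was 3.59 ± 0.51 (SE, limma adjusted p = 0.000147). Cxcr2, the receptor for Cxcl1, Cxcl2 and Cxcl5, rose by 1.43 ± 0.29 (SE, limma adjusted p = 0.00181). S100a8 and S100a9, the subunits of calprotectin, rose by 1.60 ± 0.48 and 1.42 ± 0.45. For S100a8 the values were 1612 to 22741 normalized counts in arthritis libraries (median 12906), against 1711 to 9800.1 in control libraries (median 2644), and 4 arthritis libraries lay within the control range. Of 9 genes of neutrophil granules that are transcribed in the marrow 0 passed, and the median was 0.32. Ngp, a granule gene of immature neutrophils, was at 269.5 to 8545 normalized counts in arthritis libraries (median 2664), against 1575 to 9663 in control libraries (median 2877), and the difference was -0.65 ± 0.67 (SE, limma adjusted p = 0.503) on the log2 scale. In that gene the arthritis libraries spread below and across the controls.

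Interferon-stimulated genes rose in 13 of 20 members and fell in 0, with a median of 1.19 (1.56 in Sema3b-/- and 0.56 in WT forepaws). Bst2 (tetherin), which holds budding viruses at the cell surface, was at 90.3 to 454 normalized counts in arthritis libraries (median 267), against 40.9 to 86.3 in control libraries (median 64.5). The conditions did not overlap, and the log2 fold change was 1.87 ± 0.26 (SE, limma adjusted p = 0.000122). Isg15, a ubiquitin-like modifier, was at 51.9 to 326 normalized counts in arthritis libraries (median 141), against 18.8 to 84.4 in control libraries (median 29.8). WT arthritis 1 and WT arthritis 2 lay below the highest control, Sema3b-/- control 2, and the log2 fold change was 2.02 ± 0.31 (SE, limma adjusted p = 0.000233). Ifit1, Mx1, Oas2 and Irf7 rose by 1.47 ± 0.38, 1.47 ± 0.41, 1.31 ± 0.37 and 1.18 ± 0.35. Outside that list, Ifitm1 and Ifi27l2a, both inducible by interferon, were higher without overlap, at 2.37 ± 0.33 and 1.76 ± 0.23. Among the 11 female libraries alone, 5 from arthritis and 6 from control mice, 4 of the 13 called interferon genes passed.

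The promoter of Isg15 is shown for the letters of the interferon-stimulated response element in its window (chr4:156200769-156201068, minus strand, GRCm38.p6, RefSeq). Capitals mark matches to GAAA, any 2 bases and GAAA on either strand.
Isg15: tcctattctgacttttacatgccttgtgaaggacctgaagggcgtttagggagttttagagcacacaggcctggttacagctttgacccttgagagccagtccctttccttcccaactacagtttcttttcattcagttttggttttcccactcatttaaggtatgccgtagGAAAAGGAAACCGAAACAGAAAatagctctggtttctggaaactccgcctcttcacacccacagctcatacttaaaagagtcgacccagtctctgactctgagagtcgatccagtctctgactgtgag
The letters begin at positions -78, -72 and -66 from the start site, and neighbouring matches overlap. They were found in 3.49% of all promoter windows, in 3.01% of windows of tested genes, in 6.27% of windows of genes that rose and in 1.76% of windows of genes that fell.

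Antigen presentation and complement rose in part. In 4 of 7 MHC class II genes arthritis libraries were higher at the threshold, with a median of 0.77. That median was 1.36 in Sema3b-/- and 0.18 in WT forepaws. H2-Aa, the alpha chain of I-A, rose by 1.07 ± 0.27 (SE, limma adjusted p = 0.00910), with WT arthritis 1 and WT arthritis 2 inside the control range. Without any 1 of WT arthritis 4, Sema3b-/- control 3 or Sema3b-/- control 4, 2 of these 4 genes passed. MHC class I and immunoproteasome genes passed in 4 of 10 cases, with B2m (beta-2-microglobulin) at 0.83 ± 0.16, Psmb8 at 0.66 ± 0.19 and Psmb9 at 0.84 ± 0.23. Complement genes rose in 7 of 12 cases (median 0.66). Among them were C3, the central component, at 1.13 ± 0.23, Cfb of the alternative pathway at 1.48 ± 0.30 and C3ar1, a receptor for the C3a fragment, at 1.71 ± 0.30.

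Genes induced by NF-κB, or that hold it in check, rose in 7 of 14 members (median 0.48). Socs3, an inhibitor of cytokine receptor signalling, was at 98.6 to 696 normalized counts in arthritis libraries (median 308), against 80.1 to 110.3 in control libraries (median 91.9). WT arthritis 2 was the lone arthritis library within the controls, and the log2 fold change was 1.64 ± 0.26 (SE, limma adjusted p = 0.000310). Nfkbia, which holds NF-κB in the cytoplasm, rose by 0.54 ± 0.12, Birc3 by 0.86 ± 0.19 and Nfkbiz by 0.97 ± 0.23. Without any 1 of WT arthritis 4, Sema3b-/- arthritis 2 or Sema3b-/- control 4, 4 of the 7 passed. Early response genes, which cells switch on within minutes of a stimulus, rose in 7 of 14 members and fell in 1. Fos, a subunit of AP-1, was at 129.6 to 1143 normalized counts in arthritis libraries (median 357), against 90.4 to 146 in control libraries (median 110.0). Sema3b-/- arthritis 1 alone fell inside the control range, and Fos rose by 1.92 ± 0.42 (SE, limma adjusted p = 0.00422). Atf3 and Nr4a2 rose by 1.61 ± 0.35 and 1.62 ± 0.40. Jund, an AP-1 subunit with growth-restraining activity, fell, with a log2 change of -0.73 ± 0.15 (SE, limma adjusted p = 0.00201). Once the trend on transcript GC content was removed from each library, Jund was at -0.11 and did not pass (limma adjusted p = 0.601).

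Lipid mediators and glucocorticoid-responsive genes followed. Of 13 genes of prostaglandin and leukotriene metabolism 5 rose and 3 fell. Ptgs2 (cyclooxygenase-2), the inducible enzyme of prostaglandin synthesis, was at 2.96 to 49.4 normalized counts in arthritis libraries (median 14.4), against 0 to 8.09 in control libraries (median 1.70). It rose by 2.37 ± 0.48 (SE, limma adjusted p = 0.00205), while Ptgs1, the constitutive enzyme, fell, with a log2 change of -0.52 ± 0.16 (SE, limma adjusted p = 0.0244). Alox5ap, needed for leukotriene synthesis, rose by 1.11 ± 0.16. Among 10 glucocorticoid-induced genes 6 rose (median 0.78). Fkbp5, a co-chaperone of the glucocorticoid receptor, was at 57.0 to 119 normalized counts in arthritis libraries (median 85.0), against 43.2 to 54.8 in control libraries (median 48.8), without overlap, and rose by 0.70 ± 0.15 (SE, limma adjusted p = 0.00253). Angptl4 rose by 2.35 ± 0.41, Sgk1 by 0.89 ± 0.18, and the metallothioneins Mt1 and Mt2, whose reads may be shared, by 1.26 ± 0.15 and 1.49 ± 0.20.

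Matrix-degrading enzymes changed in a few members. Mmp3 (stromelysin-1), an enzyme of synovial fibroblasts that cleaves proteoglycan and activates other proteases, was at 130.0 to 3795 normalized counts in arthritis libraries (median 1895), against 40.5 to 157 in control libraries (median 82.5). Only WT arthritis 2 lay within the control range, and the log2 fold change was 4.14 ± 0.58 (SE, limma adjusted p = 0.000219). Timp1, an inhibitor of such enzymes, was at 296 to 11315 normalized counts in arthritis libraries (median 3987), against 492 to 1211 in control libraries (median 642). Its lowest library, WT arthritis 2, lay below every control, and Timp1 rose by 2.28 ± 0.44 (SE, limma adjusted p = 0.00187). Leaving out WT arthritis 2 brought these values to 4.54 for Mmp3 and 2.63 for Timp1. Of 12 tested members of the list 3 rose (Mmp3, Timp1 and Mmp19) and 1 fell (Timp3, by a log2 fold change of -0.62 ± 0.18). The shares over all tested genes were 12.8% higher and 11.1% lower. Of 9 ADAMTS proteases 2 rose, Adamts1 by 1.15 ± 0.19 without overlap and the aggrecanase Adamts4 by 2.17 ± 0.70 with 7 arthritis libraries inside the control range, near the share over all genes.

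The promoter of Mmp3 is printed for its AP-1 letters, TGANTCA in capitals (chr9:7445572-7445871, plus strand, GRCm38.p6, RefSeq).
Mmp3: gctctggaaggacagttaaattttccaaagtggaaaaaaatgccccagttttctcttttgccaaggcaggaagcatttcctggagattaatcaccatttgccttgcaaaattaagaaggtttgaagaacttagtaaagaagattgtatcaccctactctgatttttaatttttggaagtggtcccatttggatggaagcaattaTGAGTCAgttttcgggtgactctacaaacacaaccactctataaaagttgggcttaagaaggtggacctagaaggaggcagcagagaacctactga
The match begins at -46 from the start site. Such letters occurred in 7.93% of all promoter windows, in 5.62% of windows of tested genes, in 6.95% of windows of genes that rose and in 5.36% of windows of genes that fell.

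Hyaluronan genes rose in 5 of 9 members (median 0.54). Tnfaip6 (TSG-6), which binds hyaluronan and is induced by TNF and interleukin-1, was at 67.2 to 1558 normalized counts in arthritis libraries (median 611), against 21.6 to 58.1 in control libraries (median 44.4). There was no overlap, and the log2 fold change was 3.46 ± 0.55 (SE, limma adjusted p = 0.000447). The synthases Has1 and Has2 rose by 1.19 ± 0.27 and 1.17 ± 0.31, the receptor Cd44 by 0.54 ± 0.14 and the proteoglycan Vcan by 1.02 ± 0.22. Of 15 markers of synovial fibroblasts 1 passed: Pdpn (podoplanin), at 185 to 1558 normalized counts in arthritis libraries (median 944), against 121 to 296 in control libraries (median 215), rose by 1.95 ± 0.33 (SE, limma adjusted p = 0.000631). That share is below the one over all genes, and the list's median was 0.09.

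Secreted antagonists of Wnt signalling moved in both directions, 2 rising and 5 falling among 10. Sfrp2 was at 158 to 2636 normalized counts in arthritis libraries (median 1092), against 76.0 to 190.1 in control libraries (median 152). WT arthritis 2 alone lay within the controls, and Sfrp2 rose by 2.75 ± 0.53 (SE, limma adjusted p = 0.00190). Sfrp1 rose by 1.87 ± 0.43. Sfrp4 was at 102 to 197 normalized counts in arthritis libraries (median 147), against 227 to 346 in control libraries (median 260.4), without overlap, and its log2 fold change was -0.93 ± 0.14 (SE, limma adjusted p = 0.000266). Sost (sclerostin, an osteocyte inhibitor of bone formation), Dkk1, Wif1 and Sfrp5 fell by log2 fold changes of -1.51 ± 0.42, -1.26 ± 0.40, -1.22 ± 0.21 and -1.10 ± 0.31.

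Genes of bone-forming cells fell. Of 13 osteoblast and osteocyte genes 10 were lower and 0 higher in arthritis, with a median of -1.21. Bglap (osteocalcin, a protein of mineralized bone) was at 5.03 to 47.1 normalized counts in arthritis libraries (median 17.2), against 40.8 to 472 in control libraries (median 119). WT arthritis 3 was the lone arthritis library inside the control range, at the level of Sema3b-/- control 4, and the log2 fold change was -3.05 ± 0.47 (SE, limma adjusted p = 0.000285). Reads of Bglap and Bglap2 (-2.37 ± 0.50) may be shared, since the genes are near-identical. Alpl (alkaline phosphatase, needed for mineralization) was at 145 to 513 normalized counts in arthritis libraries (median 213), against 285 to 1295 in control libraries (median 673). WT arthritis 1 and WT arthritis 3 reached into the control range, and Alpl fell, with a log2 change of -1.53 ± 0.28 (SE, limma adjusted p = 0.00101). Phex, Mepe, Dmp1 and Sp7 (osterix, the master regulator of osteoblasts) fell, at -1.44 ± 0.38, -1.13 ± 0.31, -1.21 ± 0.40 and -1.15 ± 0.36. Without Sema3b-/- control 2 or without Sema3b-/- control 3, 6 of the 10 still passed, and 6 passed once the trend on transcript GC content was removed.

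Of 11 members of an osteoclast list 1 passed, below the share over all genes: Tnfsf11 (RANKL, the cytokine that drives osteoclast formation) was at 6.54 to 59.8 normalized counts in arthritis libraries (median 27.0), against 1.20 to 17.3 in control libraries (median 8.75) and rose by 1.49 ± 0.41 (SE, limma adjusted p = 0.0143). Its low values carry few reads. The bone-resorbing enzyme gene Acp5, the integrin gene Itgb3 and the proton pump gene Atp6v0d2 had log2 fold changes of -0.58 ± 0.35 (SE, limma adjusted p = 0.230), -0.71 ± 0.28 and 0.55 ± 0.24, none past the threshold.

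Cartilage genes fell in 7 of 18 members and rose in 0, with a median of -1.42 (-2.23 in Sema3b-/- and -0.59 in WT forepaws). Col2a1, the main collagen of cartilage, was at 109.6 to 2271 normalized counts in arthritis libraries (median 631), against 550.5 to 11558 in control libraries (median 3729.7). Arthritis and control libraries overlapped widely, 5 arthritis libraries lying within the control range, and the log2 fold change was -2.19 ± 0.65 (SE, limma adjusted p = 0.0240). Col11a2, a collagen that assembles with it, fell, at -2.34 ± 0.44. Col10a1 (the collagen of hypertrophic growth plate cartilage), Chad (chondroadherin), Cilp2 and Clec3a fell, at -2.78 ± 0.73, -2.18 ± 0.39, -1.80 ± 0.33 and -1.89 ± 0.42. Acan, Comp and Sox9, at -0.25 ± 0.50, 0.04 ± 0.14 and 0.29 ± 0.18, did not pass. Among controls Sema3b-/- control 4 was lowest in both lists, at a list median of -1.52 for bone and -1.95 for cartilage relative to the control mean.

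Genes of peripheral nerve glia fell in 9 of 14 members (median -0.98), and all 9 passed whichever library was left out. Prx (periaxin), a protein that stabilizes peripheral myelin, was at 15.2 to 98.9 normalized counts in arthritis libraries (median 54.7), against 129.6 to 216 in control libraries (median 153). The conditions did not overlap, and the log2 fold change was -1.75 ± 0.32 (SE, limma adjusted p = 0.000935). Sox10, the transcription factor that maintains Schwann cells, was at 11.1 to 141 normalized counts in arthritis libraries (median 79.2), against 139.7 to 647 in control libraries (median 269). Sema3b-/- arthritis 4 at its highest just reached the lowest control, and Sox10 fell, with a log2 change of -2.33 ± 0.47 (SE, limma adjusted p = 0.00248). Mbp (myelin basic protein) was separate between conditions as well, at -1.15 ± 0.22.

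Muscle genes fell in 6 of 18 members and rose in 0, with a median of -1.25. Acta1, the actin of skeletal muscle fibres, was at 1242 to 18239 normalized counts in arthritis libraries (median 6327), against 12042 to 31782 in control libraries (median 16812). WT arthritis 2 lay within the controls, WT arthritis 3 and Sema3b-/- arthritis 2 had the least muscle message, and Acta1 fell, with a log2 change of -1.76 ± 0.48 (SE, limma adjusted p = 0.0156). Myh4 and Myh2, fast myosin heavy chains, fell, at -1.98 ± 0.56 and -1.47 ± 0.50, and Mb (myoglobin) at -1.79 ± 0.58. The calls of Myh2 and Mb were lost in 13 and 8 of the 18 fits that left out 1 library. Of the 6 genes, 3 passed without any 1 of Sema3b-/- arthritis 5, Sema3b-/- control 3, Sema3b-/- control 4, WT arthritis 3, WT arthritis 4, WT control 2 or WT control 4. Genes of muscle atrophy and denervation gave 1 higher (Runx1, 0.95 ± 0.23) and 1 lower (Cdkn1a, -0.90 ± 0.14) of 10, shares near those over all genes. Myl6b, a myosin light chain, and Dmpk, a kinase of muscle, fell without overlap. Myl6b was at 40.7 to 494 normalized counts in arthritis libraries (median 230.4), against 607 to 1351 in control libraries (median 1025), and the log2 fold change of Dmpk was -1.34 ± 0.24.

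Epidermal genes had the lowest list median, -1.54, yet 3 of 16 passed, near the share over all genes. Arthritis libraries ranged from -4.96 to 0.60 in list median, relative to the control mean. Krt10, a keratin of differentiating skin, was at 552 to 27136 normalized counts in arthritis libraries (median 8879), against 18571 to 112036 in control libraries (median 28734). Its arthritis libraries spread from far below to within the control range, with WT arthritis 2 and Sema3b-/- arthritis 3 among the controls. Krt10, Krt1 and Lor (loricrin) fell, at -2.56 ± 0.73, -2.39 ± 0.75 and -1.97 ± 0.59, and 1 of the 3 passed without Sema3b-/- control 4. Nccrp1, a gene of squamous epithelium, was at 12.6 to 390.0 normalized counts in arthritis libraries (median 179), against 547 to 2903 in control libraries (median 819). It showed no overlap and the lowest log2 fold change of the genes named by the rule, -2.81 ± 0.53 (SE, limma adjusted p = 0.00171).

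Lipid genes fell more evenly. Of 12 genes of fatty acid synthesis 6 were lower and 0 higher, with a median of -0.74. Fasn, fatty acid synthase, was at 81.3 to 178 normalized counts in arthritis libraries (median 106), against 178 to 428 in control libraries (median 329). All arthritis libraries lay below all controls, and the log2 fold change was -1.37 ± 0.19 (SE, limma adjusted p = 9.23e-05). Srebf1, the transcription factor that induces this pathway, fell, at -0.62 ± 0.13, Scd1 at -0.87 ± 0.21 and Pnpla3 at -1.50 ± 0.37. Adipocyte genes fell in 5 of 13 cases, among them the lipase Pnpla2 (-0.98 ± 0.23) and the hormone Lep, leptin (-1.36 ± 0.39), but Adipoq (-0.49 ± 0.25) and Plin1 (-1.03 ± 0.43) did not pass. Without any 1 of Sema3b-/- arthritis 2, Sema3b-/- control 4, WT arthritis 4, WT control 2 or WT control 4, 3 of these 5 passed. Cholesterol synthesis gave 1 lower of 10 (Insig1, -0.53 ± 0.14) and endothelium 2 lower of 13 (Vwf, -0.69 ± 0.17, and Tek, -0.37 ± 0.13), both near the share over all genes.

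B-cell genes fell in 9 of 12 members and rose in 0, with a median of -1.38. Cd79a, a signalling chain of the B-cell receptor, was at 40.8 to 263 normalized counts in arthritis libraries (median 119), against 205 to 936 in control libraries (median 359.9). WT arthritis 5 and Sema3b-/- arthritis 4 lay within the control range, and the log2 fold change was -1.84 ± 0.40 (SE, limma adjusted p = 0.00400). Vpreb3, Igll1 and Rag1, which mark precursor B cells of the marrow, fell, at -1.67 ± 0.51, -1.36 ± 0.45 and -1.82 ± 0.56. Without Sema3b-/- control 2, the library with the highest Cd79a, 4 of the 9 passed, and without WT arthritis 4, 5 did. Erythroid genes passed in 1 of 9 cases (Ank1, -1.40 ± 0.38), near the share over all genes. Their summed level was 7276.5 to 83075 normalized counts in arthritis libraries and 21568 to 174210 in control libraries. How far the amount of marrow in each paw goes with the B-cell and granule genes was not tested.

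T-cell and NK-cell genes passed in 2 of 11 cases, a share near that over all genes. Gzmb, the cytotoxic protease granzyme B, was at 5.23 to 87.6 normalized counts in arthritis libraries (median 33.2), against 0 to 11.9 in control libraries (median 0.279). WT arthritis 1 and WT arthritis 2 lay within the control range, and Gzmb rose by 3.72 ± 0.64 (SE, limma adjusted p = 0.000539) from few reads. Icos, a co-stimulatory receptor of T cells, rose by 1.42 ± 0.36. Cell cycle genes rose in 3 of 16 cases, Pcna by 0.53 ± 0.10, Cdk1 by 0.65 ± 0.19 and Bub1 by 0.98 ± 0.32, also near the share over all genes.

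The circadian clock changed as a group. The list holds the core loop and its outputs, in which CLOCK or NPAS2 pairs with BMAL1 to induce the Per, Cry, Nr1d and PAR-bZIP genes. Of 17 genes 10 fell and 2 rose, and all 12 calls held whichever library was left out. Nr1d1 (REV-ERB alpha), a repressor in the loop, was at 169 to 507 normalized counts in arthritis libraries (median 351), against 651 to 1075 in control libraries (median 996). The conditions did not overlap, and the log2 fold change was -1.52 ± 0.20 (SE, limma adjusted p = 9.57e-05). Per3 was at 25.3 to 71.6 normalized counts in arthritis libraries (median 40.1), against 76.0 to 146 in control libraries (median 113). It was likewise separate, and fell, with a log2 change of -1.30 ± 0.20 (SE, limma adjusted p = 0.000285). Dbp and Tef, PAR-bZIP activators, and Ciart, a repressor of the loop, also showed no overlap, at -1.47 ± 0.23, -1.11 ± 0.16 and -1.39 ± 0.23. Hlf, Per2, Cry2, Bhlhe41 and Nr1d2 fell, at -1.41 ± 0.37, -0.89 ± 0.22, -0.80 ± 0.20, -0.80 ± 0.14 and -0.48 ± 0.12. The members that rose were Npas2, a partner of BMAL1, by 1.47 ± 0.31 and Nfil3, a repressor at the sites that Dbp activates, by 1.10 ± 0.29. Arntl (BMAL1) and Clock, at 0.07 ± 0.25 and -0.16 ± 0.19, did not pass. The hour of tissue collection is not given in the labels used here.

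Per3's promoter is printed because it holds letters of the D-box, the site of the PAR-bZIP proteins. Capitals mark TTATGNAA on either strand (chr4:151044616-151044915, minus strand, GRCm38.p6, RefSeq).
Per3: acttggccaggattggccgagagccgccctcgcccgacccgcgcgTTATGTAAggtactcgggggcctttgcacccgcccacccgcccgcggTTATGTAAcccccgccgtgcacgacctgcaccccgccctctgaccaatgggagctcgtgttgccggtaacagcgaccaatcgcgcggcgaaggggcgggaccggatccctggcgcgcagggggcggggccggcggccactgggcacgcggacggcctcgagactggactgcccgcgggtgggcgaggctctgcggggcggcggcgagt
The 2 matches begin at -205 and -158 from the start site, and were not tested as binding sites. Windows of Nr1d1, Dbp, Hlf and Tef, which also fell, hold no such letters, and the window of Saa3, which rose, holds them at -99. D-box letters occurred in 3.52% of all promoter windows, in 2.13% of windows of tested genes, in 2.95% of windows of genes that rose and in 2.02% of windows of genes that fell.

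Most ribosomal protein genes rose by small amounts. On a list of 12, 10 rose, and over all 81 tested ribosomal protein genes 68 rose and 0 fell, with a median log2 fold change of 0.48 and a range of -1.52 to 0.81. Rps12, a protein of the small subunit (chr10:23785183-23787383), was at 14882 to 17486 normalized counts in arthritis libraries (median 15666), against 8857 to 11049 in control libraries (median 9750.1). The range within each condition was narrower than the gap between them, and the log2 fold change was 0.71 ± 0.06 (SE, limma adjusted p = 2.01e-06). Rps21, Rpl38 and Fau were similar, at 0.64 ± 0.07, 0.54 ± 0.06 and 0.55 ± 0.06, and so was Npm1, a nucleolar protein of ribosome assembly, at 0.72 ± 0.08. Nuclear genes of oxidative phosphorylation went the other way, 5 of 17 falling, with Ndufv1 at -0.61 ± 0.13 and Cox7a1, a muscle form, at -1.41 ± 0.46. Without Sema3b-/- arthritis 2 or Sema3b-/- control 4, 3 passed. With the GC trend removed 2 of the 5 passed, and neither Ndufv1 nor Cox7a1 was among them. Of 13 mitochondrially encoded genes 1 passed, below the share over all genes, and the list median was -0.05 in Sema3b-/- and 0.57 in WT forepaws. The gene was mt-Co1 (0.72 ± 0.26), and its call was lost in 13 of the 18 fits that left out 1 library. Glycolysis and hypoxia genes gave 2 higher and 2 lower of 14, near the shares over all genes, with the hypoxia factor Hif1a at 0.99 ± 0.19.

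Among long RNAs, Malat1 rose by 0.71 ± 0.21 and Gas5, host of small nucleolar RNAs, by 0.41 ± 0.09. Neat1, the scaffold of paraspeckles, fell, at -0.85 ± 0.19. With the GC trend removed Malat1 was at 0.48 and did not pass (limma adjusted p = 0.111). Lars2, the mitochondrial leucyl-tRNA synthetase (chr9:123366927-123462675), was at 118 to 299 normalized counts in arthritis libraries (median 191), against 629.5 to 1299.5 in control libraries (median 744). No library overlapped, and the log2 fold change was -2.01 ± 0.18 (SE, limma adjusted p = 3.12e-06), with -2.45 in Sema3b-/- and -1.58 in WT forepaws. Ltbp4, a latent TGF-beta binding protein of elastic fibres (chr7:27305140-27339720), was at 162 to 435 normalized counts in arthritis libraries (median 328), against 903 to 1554 in control libraries (median 1103). Its conditions lay far apart, at a log2 change of -1.85 ± 0.15 (SE, limma adjusted p = 1.52e-06), the lowest p among genes that fell. Of 13 elastic fibre genes 3 rose (Mfap4, 1.37 ± 0.43, Lox, 1.02 ± 0.36, and Fbn1, 0.74 ± 0.18) and Ltbp4 alone fell. Over all tested genes 12.8% rose and 11.1% fell. Of the 4 elastic fibre genes, 2 passed without any 1 of Sema3b-/- arthritis 5, Sema3b-/- control 4, WT arthritis 4, WT arthritis 5 or WT control 2. The call of Lox was lost in 14 of the 18 fits that left out 1 library.

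Other genes that fell without overlap were Notch3, a receptor of vascular mural cells, at -1.35 ± 0.15, the kinase gene Mark2 at -0.96 ± 0.08, the retinoic acid receptor gene Rarg at -1.04 ± 0.12 and the histone methyltransferase gene Setd1b at -0.96 ± 0.10. Atp1b2, Zfp385a, Zbtb7c, Med25, Tcf7l1, Pitpnm2, Dab2ip, Epn1, Prrc2b and Gtpbp2 completed the set, with log2 fold changes from -1.74 for Atp1b2 to -0.72 for Prrc2b. Myl6, a non-muscle and smooth muscle myosin light chain, rose by 0.65 ± 0.08.

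Semaphorins and their receptors, the family of the deleted gene, shifted mostly downward. Of 28 tested members 10 fell and 3 rose, with a median of -0.35. Sema6c, a transmembrane semaphorin, was at 11.7 to 45.4 normalized counts in arthritis libraries (median 17.5), against 54.4 to 116 in control libraries (median 70.8). The conditions did not overlap, and the log2 fold change was -1.94 ± 0.25 (SE, limma adjusted p = 6.01e-05), with -2.32 in Sema3b-/- and -1.55 in WT forepaws. Sema4b, another transmembrane member, was at 28.1 to 121 normalized counts in arthritis libraries (median 79.5), against 112 to 240.2 in control libraries (median 190.0). Sema3b-/- arthritis 3 and 4 lay within the control range, and Sema4b fell, with a log2 change of -1.26 ± 0.21 (SE, limma adjusted p = 0.000453). The secreted Sema3e and Sema3d fell, at -1.27 ± 0.29 and -0.96 ± 0.25, and the receptors Plxnb1, Plxna2 and Plxna1 at -1.18 ± 0.27, -0.70 ± 0.15 and -0.63 ± 0.14. Plxnc1, the receptor of Sema7a, rose by 1.14 ± 0.23 (SE, limma adjusted p = 0.00163), while Sema7a itself fell, at -0.64 ± 0.18. Nrp1, a co-receptor of class 3 semaphorins, rose by 0.32 ± 0.09. Sema3b had a pooled log2 change of -0.53 ± 0.40 (SE, limma adjusted p = 0.334), which did not pass. Because Sema3b-/- libraries lack the gene, they cannot show a change in it. The pooled value therefore does not measure how Sema3b responds to arthritis.

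**Figure D3:**
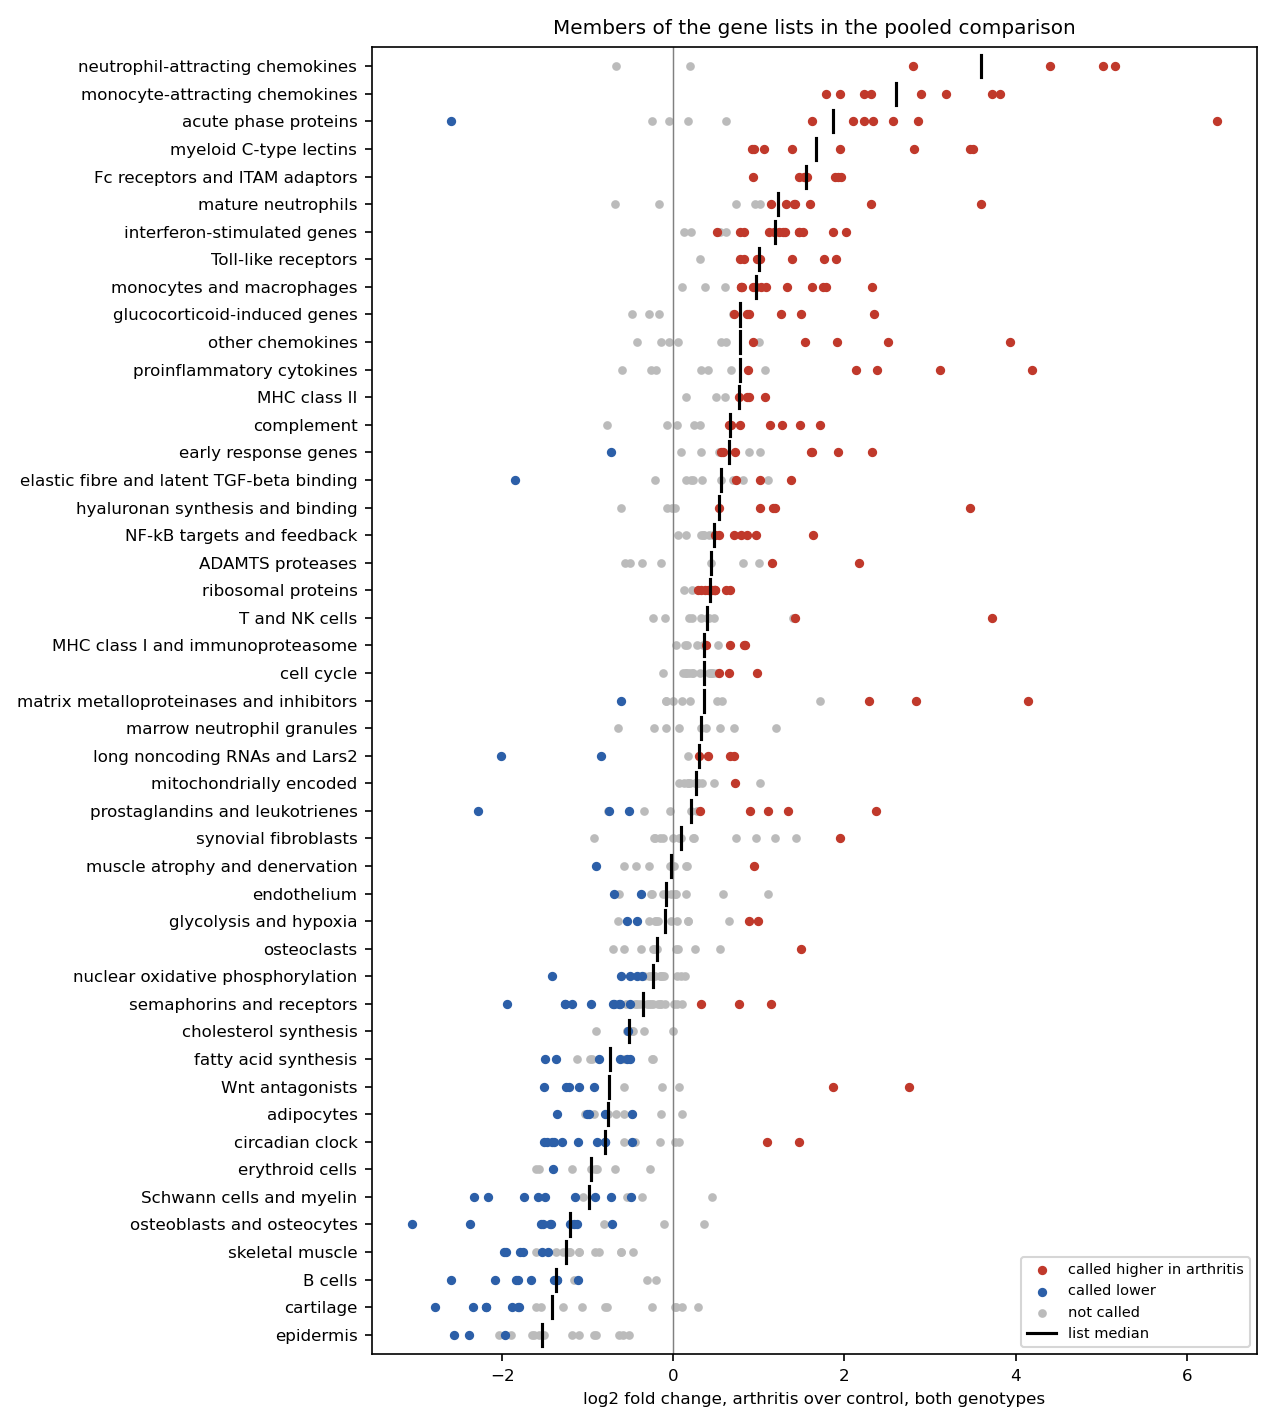
Log2 fold change of arthritis over control for the tested members of each gene list; red points were called higher, blue points called lower and grey points not called, and black bars are list medians. Medians run from 3.60 for neutrophil-attracting chemokines at the top to -1.54 for epidermis at the bottom.

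The median SD within genotype over all tested genes was 0.396 in arthritis libraries, against 0.369 in control libraries, on the log2 scale. Among genes that rose it was 0.333 in arthritis libraries, against 0.270 in control libraries, and among genes that fell 0.439 in arthritis libraries, against 0.335 in control libraries. WT arthritis 2 was the arthritis library nearest to the controls for 36.5% of the genes that rose and 27.5% of those that fell, and WT arthritis 1 for 24.2% and 19.7%. WT arthritis 2 was the lowest arthritis library for Saa3, Cxcl1, Cxcl2, Cxcl5, Ccl2, Ccl7, Mmp3 and Timp1, but its mature neutrophil genes stood 1.45 above the control mean on the log2 scale (list median). WT arthritis 1 was the lowest for Il1b, Ccl8, Hp, Slpi, Clec4e and Fcer1g, and its mature neutrophil genes stood at -0.51. Neutrophil-attracting chemokines stood at 0.93 in WT arthritis 1 and 0.00 in WT arthritis 2, against 3.61 to 5.11 in the other 8 arthritis libraries. Without WT arthritis 2 limma called 1982 genes higher and 1881 lower, and without Sema3b-/- arthritis 5, whose column ends in Ct, 1505 higher and 1287 lower. No called gene named here had its log2 fold change moved by more than 1.5 times when any 1 library was left out.

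**Figure D4:**
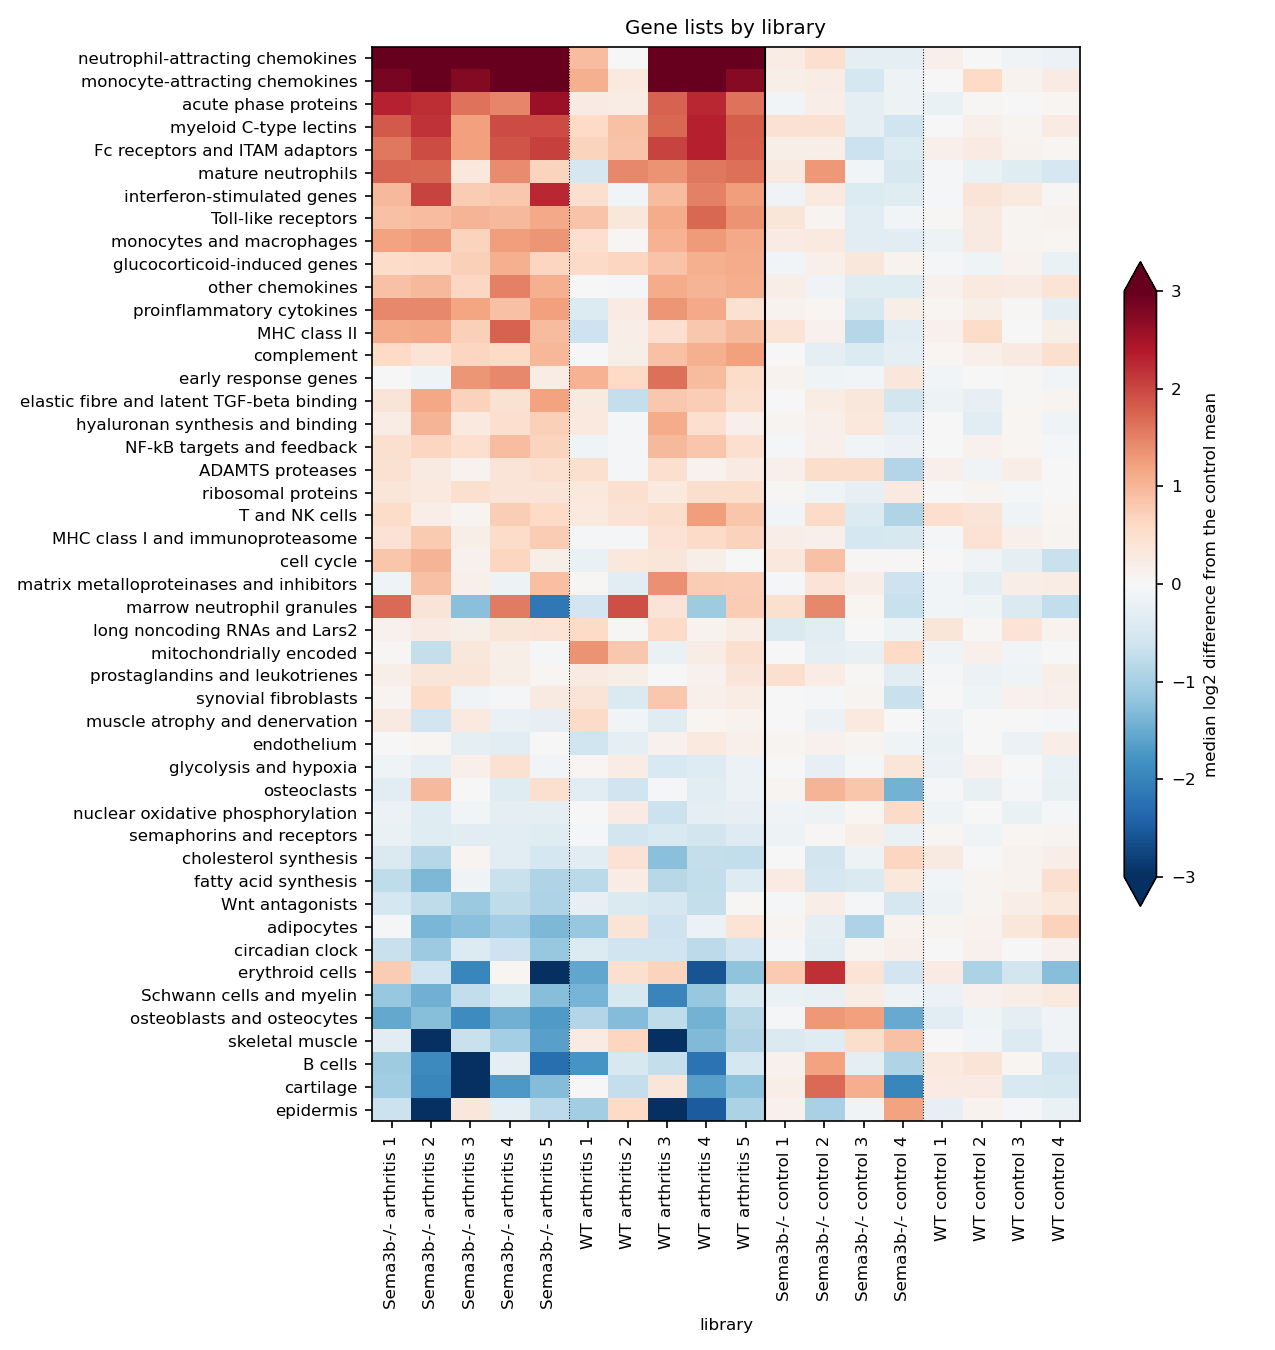
Median log2 difference of each list's members from their control mean, by library, with arthritis libraries left of the black line and controls right of it; red is higher, blue is lower, and colours stop at 3 and -3. Neutrophil-attracting chemokines stand at 3.61 to 5.11 in 8 arthritis libraries, 0.93 in WT arthritis 1 and 0.00 in WT arthritis 2, and epidermis runs from -4.96 to 0.60 among arthritis libraries.

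Sex and composition of the transcripts moved with the comparison. With sex as a term limma called 1594 genes higher and 1391 lower. Among the female libraries alone, 5 from arthritis and 6 from control mice, it called 551 higher and 459 lower. Of the 3299 genes, 3294 kept their sign. Genotypes were unbalanced there: 4 Sema3b-/- and 1 WT library (WT arthritis 1) from arthritis, against 2 Sema3b-/- and 4 WT from control mice. In those female libraries 7 of 8 called monocyte-attracting chemokines, 5 of 8 C-type lectins, 6 of 12 clock genes, 4 of 9 Schwann cell genes, 3 of 10 ribosomal protein genes, 1 of 10 bone genes, 1 of 9 B-cell genes and 0 of 6 muscle genes passed. Tested genes were split by transcript GC content into 4 equal classes. Of genes in the class with the lowest GC content 20.5% rose and 2.11% fell, against 5.68% and 24.1% in the class with the highest. The median log2 fold change was 0.17, 0.04, -0.08 and -0.28 in the 4 classes, from the lowest GC content to the highest. In each library the GC-rich class was set against the GC-poor class, as medians of the log2 deviation from the control mean. That difference was -0.69 to -0.34 in arthritis libraries (median -0.39), against -0.11 to 0.15 in control libraries, without overlap. With the trend on GC content removed from each library, 1621 genes rose and 834 fell, so that 66.0% of calls were increases, against 53.4% without the removal, and 1887 of the 3299 genes were still called. Of the lists that fell, 6 of 10 called bone genes, 5 of 7 cartilage genes, 5 of 9 B-cell genes and 8 of 9 Schwann cell genes still passed. So did 4 of 6 fatty acid genes, 3 of 6 muscle genes and 2 of 5 nuclear genes of oxidative phosphorylation. Named genes that no longer passed included Jund, Malat1, Ndufv1, Col2a1, Lor, Has2, Lox and Bub1. Transcript length had a smaller gradient, 17.1% of the shortest class and 9.20% of the longest rising. The titles of the control libraries begin with other words than those of the arthritis libraries, so whatever those words mark and arthritis cannot be told apart. How much of the GC gradient goes with either was not tested.

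**Figure D5:**
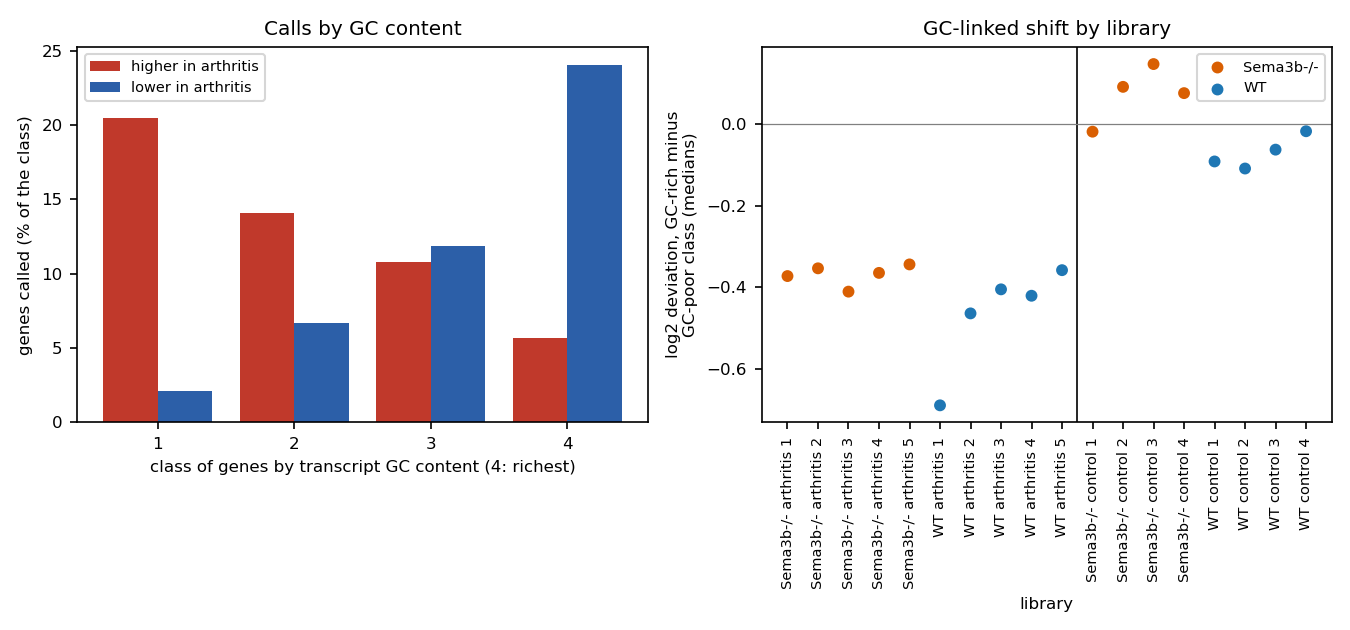
Left, percent of genes called higher (red) and lower (blue) in arthritis in each of 4 equal classes of transcript GC content, poorest first; right, the difference between the GC-rich and the GC-poor class in the median log2 deviation from the control mean, by library, with Sema3b-/- in orange and WT in blue. Calls shift from 20.5% higher in the poorest class to 24.1% lower in the richest, and all 10 arthritis libraries lie below all 8 controls.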

How the data were processed

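Messenger RNA of 18 forepaws was profiled by CEL-seq, per the labels' protocols. Per the submitters' processing notes, reads were aligned to mm10 with BWA and handled with DESeq2 1.32 (counting tool, annotation and molecular identifiers: not given in the sources used here). Values in the deposited table are a signal, namely read counts divided by a size factor per library, and 100% of its values came out as whole reads within 0.02 read. The authors' deposited tables of comparisons hold log2 fold changes and adjusted p-values. Column names were matched to sample titles, 26 gene names turned into dates were restored, and 7 spike-in rows were left out.

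Normalized counts were analysed as log2(value + 1) in R 4.3.3 with limma 3.58.1 (trend, robust empirical Bayes), with terms for genotype and arthritis and Benjamini-Hochberg adjustment over 13809 of 18578 genes that reached 10 in at least 4 libraries. Fold changes on this scale understate those of genes with low values. The difference between genotypes came from a fit of 4 group means. Library totals ran from 1732783 to 19464888 reads, with 13917 to 16568 genes detected, and floors cover counting error only. The recovered reads were also tested with edgeR 4.0.16 and DESeq2 1.42.0, and the analysis was tested on simulated data. Transcript length and GC content, from GENCODE M21, matched 98.9% of tested genes. Promoters came from RefSeq (GRCm38.p6), for 10284 tested genes.

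The members and gene lists were chosen with earlier results of these data known. Genes were named if called, without overlap between conditions and at or above the median level of tested genes: the 15 with the highest and the 15 with the lowest log2 fold change and the 10 with the lowest p in each direction, 46 in all. Called members of each list and its 4 members with the lowest p were named too. Other members said not to pass were chosen after their values were seen. Some genes are not reported here. Replicate numbers do not pair libraries. The 4 authors' tables of other comparisons were not used here.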

Additional observations from a re-analysis of the deposited data

Results flagged for a closer look

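A library was singled out when the gap to its nearest neighbour, divided by the range of the 10 arthritis or the 8 control libraries, exceeded Dixon's critical value. This happened for 8 of 92 sets of libraries tested (8.70%). For independent sets of normally distributed values, chance alone gives about 1 in 20. Most sets here are normalized counts of genes chosen because the conditions did not overlap, so that rate may not hold for them. Sema3b-/- control 4 stood apart from the other controls in 4 genes, at 1621 normalized counts of Epn1, 325 of Med25, 2903 of Nccrp1 and 842 of Zfp385a. WT control 1 stood apart from the other controls in Gtpbp2, at 459.8 normalized counts. WT arthritis 1 stood apart from the other arthritis libraries in Med25, at 17.7 normalized counts, and in the share of reads on mitochondrial transcripts, at 39.4%. WT arthritis 2 stood apart from the other arthritis libraries in its total, at 19464888 reads.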

How the results depend on the processing

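The pooled comparison gave 1763 genes higher and 1536 lower. All 3299 kept their sign where tested, except with the GC trend removed (3257), that plus the replicate block (3251) and female libraries alone (3294). The filter of at least 50 in at least 8 libraries tested 2726 of them, and all 2726 kept their sign. Counts ran from 1469 to 1982 higher and 1246 to 1881 lower when 1 library was left out. The counts moved by more than 1.5 times in 4 settings: 1081 higher and 932 lower without the 3 arthritis libraries whose titles lack the word Joint, 551 and 459 in female libraries alone, 834 lower with the GC trend removed, and 1056 and 413 with the GC trend removed and the replicate block. The replicate block alone gave 1282 higher and 1033 lower. Replicate numbers only name the libraries: for 3 of 18 the most similar library shared the number, and the correlations of same-numbered pairs ran from -0.66 to 0.41. The other alternatives, which were pseudocounts of 0.5 and 5, other filters, TMM, edgeR, DESeq2, empirical Bayes without the robust option, array weights, no genotype term, 4 group means and a sex term, gave 1594 to 2069 higher and 1303 to 1928 lower. The difference between genotypes had no call in limma, 8 in DESeq2 and 6 in female libraries alone. In female libraries alone Runx2 had a log2 fold change of 0.0309, Sema5a of 0.0146 and Xist of 0.83, turning their direction. The cause was not tested. The female, GC and shallow-library settings were chosen after seeing the data. Depth limits genes with few reads: 3 reads correspond to 12.1 normalized counts in the shallowest library.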
